A study of Mus musculus with 9 samples.

Results

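MHC class II molecules carry peptides of engulfed proteins to the cell surface, where CD4+ T cells read them. A costimulatory ligand on the same cell supplies the further signal that a T cell needs. The 10 genes of this system described here are rows, taken by symbol, of a table of 18049 genes. They are H2-Aa, H2-Ab1, H2-Eb1, H2-DMa, H2-DMb1, Cd74, Ciita, Cd86, Cd80 and Cd40. The set was chosen with earlier results of these data known. All 10 were listed in the table. The samples were macrophages grown in RPMI medium from the bone marrow of C57BL/6 mice aged 8 weeks. Of the 9 RNA libraries, 3 came from cells given 15d-PGJ2 at 1 µM, 3 from cells given 15d-PGJ2-PC at 1 µM and 3 from cells given medium only (control), all collected after 6 h. 15d-PGJ2 is an electrophilic prostaglandin. The labels do not spell out PC, and no label tells if the 3 libraries of a group stem from different cultures or mice. The p-values below therefore describe library-to-library spread, part or all of which could be technical.

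In macrophages, class II genes are known to be low at rest and to be induced by interferon-γ. Interferon-γ acts through its receptor, the kinases JAK1 and JAK2 and factors that include IRF1 to switch on Ciita. CIITA does not bind DNA itself. It is a coactivator held at class II promoters by factors on short shared elements: the RFX complex on the X box, CREB on a neighbouring CRE-like element and NF-Y on the Y box. New αβ dimers are held by the invariant chain CD74, whose remnant is later exchanged for peptide by H2-DM. The H2-b haplotype of C57BL/6 mice makes the A molecule but no E α chain, so that the E β chain of H2-Eb1 has no partner.

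Levels are given in FPKM, a read density scaled to transcript length and library size, and so a scale per length on which genes can be compared. Low values stepped in units that placed the depth at 5.42 to 5.56 M reads per library, so that several of these genes rested on few reads. In the controls the order of mean levels was Cd74 (27.0 FPKM), H2-DMb1 (19.9), Cd86 (16.1), Cd40 (15.8), H2-DMa (8.45), H2-Ab1 (5.54), H2-Aa (3.65), Cd80 (3.57), H2-Eb1 (1.94) and Ciita (0.407). The neighbours Cd86 and Cd40 overlapped in range, as did H2-Ab1 and H2-Aa, and H2-Aa and Cd80, and Cd74 stood above the level of 83.9% of the genes in the table. At these levels Cd74 amounted to an estimated 165 to 211 reads per library, H2-Aa to 10 to 28, H2-Eb1 to 7 to 23 and Ciita to 0 to 11.

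The promoter table of RefSeq (build GRCm38.p6) reaches from 250 bases before a listed start to 50 after it. It held entries for 5 of the 10 genes: H2-Aa, H2-Eb1, H2-DMa, H2-DMb1 and Cd80. Those of H2-Aa, H2-Eb1 and H2-DMb1 are shown because each holds the letters of some of these elements: H2-Aa those of the CRE and Y box, H2-Eb1 and H2-DMb1 those of the X box core and Y box. Each line gives, 5′ to 3′, the 140 bases that end at the base before the start, on the gene's own strand. Capitals mark matches on either strand to an X box (core AACNGATG), a Y box (TGATTGG) or a CRE (TGACGTCA), spellings chosen with these sequences in view.
H2-Aa, chr17:34287824-34287963, minus strand: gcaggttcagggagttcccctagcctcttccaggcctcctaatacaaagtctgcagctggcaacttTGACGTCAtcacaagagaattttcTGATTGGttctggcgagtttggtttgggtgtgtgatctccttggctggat
H2-Eb1, chr17:34305727-34305866, plus strand: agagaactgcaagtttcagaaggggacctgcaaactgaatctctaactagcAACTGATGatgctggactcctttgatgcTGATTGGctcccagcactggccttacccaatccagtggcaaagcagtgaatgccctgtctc
H2-DMb1, chr17:34153051-34153190, plus strand: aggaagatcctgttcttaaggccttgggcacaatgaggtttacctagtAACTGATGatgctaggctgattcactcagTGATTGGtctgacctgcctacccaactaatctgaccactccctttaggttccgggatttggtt

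The Y box stood 44 to 50 bases before the start of H2-Aa, 55 to 61 before that of H2-Eb1 and 57 to 63 before that of H2-DMb1. H2-Eb1 had its X box core 82 to 89 bases before the start and H2-DMb1 85 to 92, and H2-Aa had the CRE at 67 to 74. The 3 elements did not overlap one another in these windows. Among the 32851 promoters in the table, searched over the 250 bases before the start, 1.98% held this X box core, 7.23% this Y box and 1.55% this CRE. X box core and Y box stood together in 48 promoters (0.146%), of 45 genes, among them H2-Eb1, H2-DMb1 and the class II genes H2-Eb2 and H2-DMb2. None of the 3 spellings occurred in the windows of H2-DMa or Cd80, which says only that these letters are not there. The H2-DMa windows end at 34122831 and 34125517 and the Cd80 window at 38458932. These positions lie inside the gene spans (plus strand, from 34119693 and 38457430), so the bases before the outermost start of either gene were not searched. A match describes the letters and is not evidence of binding.

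With 15d-PGJ2, H2-Aa, H2-DMa, H2-DMb1, Cd86 and Cd40 fell against control, to between 52.7% (H2-Aa) and 79.4% (Cd86) of the control mean. Ciita was nearly lost, and Cd74 stayed close to its control level. Each of the 9 genes that could be tested had a lower mean than control, and 5 of 9 (55.6%) fell by limma's moderated test. None rose. Of all 11309 tested genes, 47.2% were called in this comparison, 25.0% as falls. The median log2 fold change was -0.47 over the 9 genes and -0.02 over all tested genes. The 3 libraries with 15d-PGJ2 lay below all 3 controls for 6 of the 9 genes, against 28.8% of all tested genes. A gene was tested where at least 3 of the 9 libraries had at least 1 FPKM. Fold changes are on the log2(FPKM + 1) scale, which understates those of low genes. Adjusted p-values are Benjamini-Hochberg over all tested genes, with a threshold of 0.05.

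**Figure D1:**
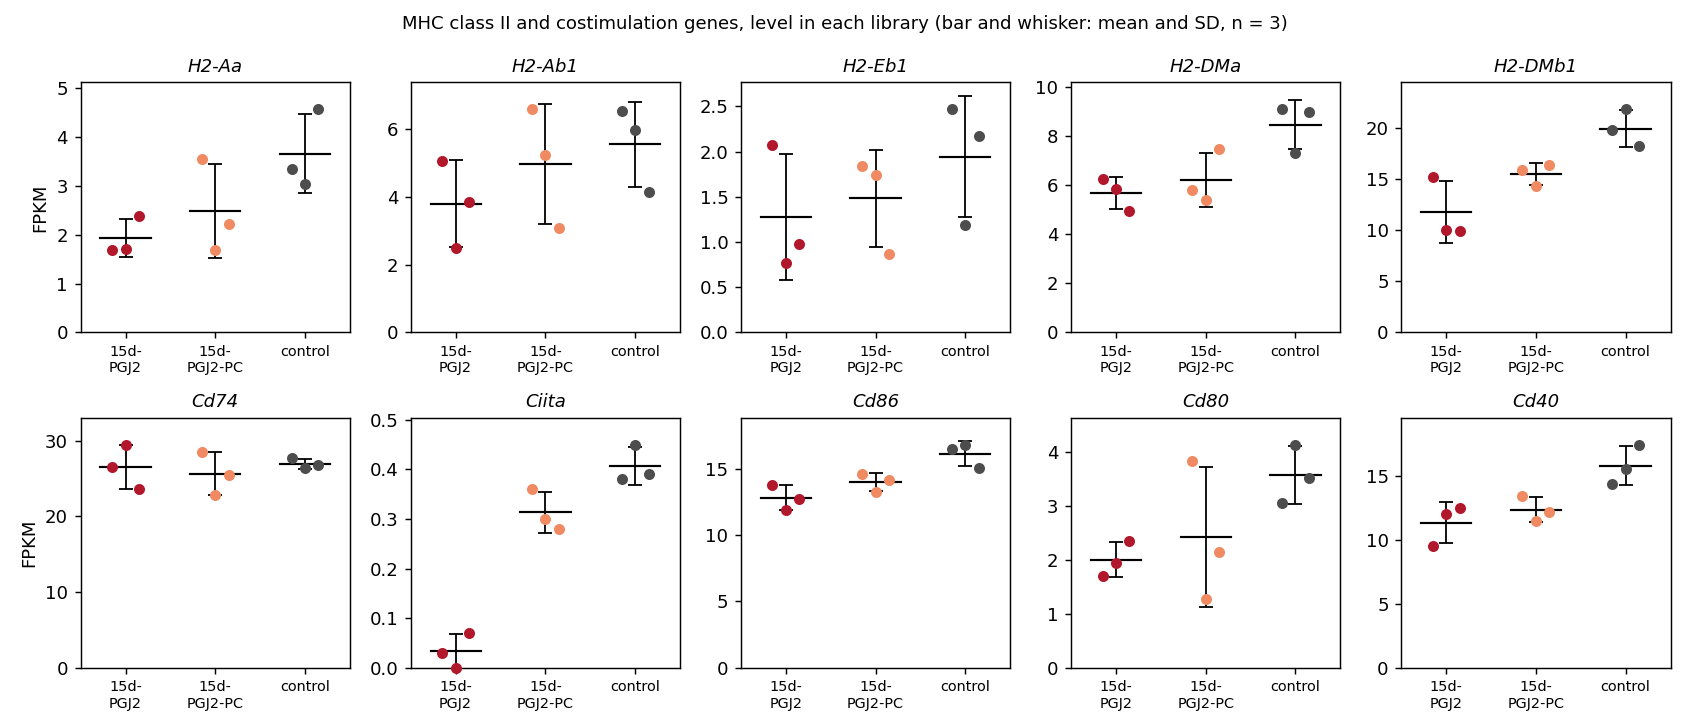
FPKM of each gene (vertical axes from 0, scaled per gene) in each library by group, with the mean and SD of 3 libraries. The 15d-PGJ2 libraries lie below every control for H2-Aa, H2-DMa, H2-DMb1, Ciita, Cd86, Cd80 and Cd40, while the groups overlap for Cd74, H2-Ab1 and H2-Eb1.

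The classical chains that form the peptide groove were low. H2-Aa, the A α chain (Entrez 14960, GRCm38 chromosome 17, 34282744 to 34287823), had 1.69, 1.71 and 2.38 FPKM with 15d-PGJ2, 3.55, 1.69 and 2.21 with 15d-PGJ2-PC, and 3.35, 3.04 and 4.57 in controls. All 15d-PGJ2 libraries were below all controls, while 15d-PGJ2-PC replicate 1 lay within the control range. Its log2 fold change with 15d-PGJ2 was -0.66 (SE 0.20, limma adjusted p = 0.0185). That call was lost without 15d-PGJ2 replicate 1 (adjusted p = 0.0568), 15d-PGJ2 replicate 2 (0.0569) or control replicate 3 (0.0731). Adjusted p ran from 0.0068 to 0.0731 across the alternatives that tested H2-Aa, which a filter of 5 FPKM left out. With 15d-PGJ2-PC the log2 fold change was -0.44 (95% interval -0.88 to 0.0030, limma adjusted p = 0.135), but it passed without 15d-PGJ2-PC replicate 1 (0.0251).

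H2-Ab1, the A β chain that pairs with it (Entrez 14961, chromosome 17, 34263227 to 34269418), had 5.06, 2.48 and 3.85 FPKM with 15d-PGJ2, 6.58, 5.22 and 3.08 with 15d-PGJ2-PC, and 6.52, 5.96 and 4.14 in controls. The groups overlapped. Its log2 fold changes against control were -0.47 with 15d-PGJ2 (95% interval -1.03 to 0.10, limma adjusted p = 0.159) and -0.16 with 15d-PGJ2-PC (-0.72 to 0.40, adjusted p = 0.693). H2-Eb1, the E β chain (Entrez 14969, chromosome 17, 34305867 to 34316674), had 2.07, 0.77 and 0.98 FPKM with 15d-PGJ2, 1.84, 1.74 and 0.87 with 15d-PGJ2-PC, and 2.47, 1.19 and 2.17 in controls. These groups overlapped as well, and neither compound passed (adjusted p = 0.241 and 0.531). For both β chain genes the intervals still hold falls of about the size seen for H2-Aa, so no difference was detectable at this depth.

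The H2-DM genes encode the editor that frees the groove for peptide, and both were lower with 15d-PGJ2. H2-DMb1, its β chain (Entrez 14999, chromosome 17, 34153191 to 34160229), had 15.22, 10.05 and 9.93 FPKM with 15d-PGJ2, 15.88, 14.29 and 16.36 with 15d-PGJ2-PC, and 19.74, 21.82 and 18.20 in controls. All 6 treated libraries were below all controls, and 15d-PGJ2 replicate 1 stood apart from its group at the level of the 15d-PGJ2-PC libraries. The log2 fold change with 15d-PGJ2 was -0.74 (SE 0.14, limma adjusted p = 0.00127). The smaller one with 15d-PGJ2-PC, -0.34 (SE 0.14), did not pass (adjusted p = 0.0973), but did without 15d-PGJ2 replicate 1 (0.0100) and in a fit of the 6 libraries of that comparison alone (0.0165, within a range of 0.0100 to 0.251). A near copy, H2-DMb2, was listed at 0 to 1.28 FPKM, and reads may be shared between the pair.

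H2-DMa, the α chain (Entrez 14998, chromosome 17, 34119693 to 34139101), had 6.24, 5.85 and 4.94 FPKM with 15d-PGJ2, 5.79, 5.37 and 7.47 with 15d-PGJ2-PC, and 9.09, 7.30 and 8.97 in controls. The 15d-PGJ2 libraries did not overlap the controls, and 15d-PGJ2-PC replicate 3 did. It fell with 15d-PGJ2, with a log2 fold change of -0.50 (SE 0.13, limma adjusted p = 0.00807). With 15d-PGJ2-PC the change of -0.40 also passed (adjusted p = 0.0411). That call was lost without 15d-PGJ2 replicate 2 (0.0525), 15d-PGJ2-PC replicate 1 (0.114) or 2 (0.137), or control replicate 1 (0.125) or 3 (0.117), and the replicate block also ended it (0.0509). It was lost as well with the 6 libraries alone (0.0535), without the trend (0.0545) and without the filter on low values (0.0856), within a range of 0.0127 to 0.137.

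Cd74, the invariant chain (Entrez 16149, chromosome 18, 60803849 to 60812652), was measured at nearly equal means in the 3 groups. It had 26.55, 29.50 and 23.65 FPKM with 15d-PGJ2, 28.57, 22.88 and 25.44 with 15d-PGJ2-PC, and 27.68, 26.41 and 26.83 in controls. The control libraries lay inside the range of both treated groups. Its log2 fold changes were -0.03 with 15d-PGJ2 (95% interval -0.22 to 0.17, limma adjusted p = 0.833) and -0.08 with 15d-PGJ2-PC (-0.27 to 0.12, adjusted p = 0.58). For 15d-PGJ2 the interval does not reach the estimates for H2-DMa (-0.50) or H2-DMb1 (-0.74). It does overlap the intervals for H2-Ab1 and H2-Eb1, and differences between genes were not tested.

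Ciita, the coactivator on which class II transcription depends (Entrez 12265, chromosome 16, 10480014 to 10531064), had 0.03, 0 and 0.07 FPKM with 15d-PGJ2, 0.36, 0.30 and 0.28 with 15d-PGJ2-PC, and 0.38, 0.45 and 0.39 in controls. The 15d-PGJ2 libraries were far below the rest, at 8.20% of the control mean, and 15d-PGJ2-PC libraries were at 77.0% of it. No library reached 1 FPKM, so the gene was outside the main test. The deposited values correspond to about 2 reads over the 3 libraries with 15d-PGJ2, 22 with 15d-PGJ2-PC and 28 in controls. These counts are approximate, because they rest on the median length of 5 transcripts. The estimates with 15d-PGJ2, 0.7, 0 and 1.6 reads, are not whole numbers. The ratio of 15d-PGJ2 to control reads was 0.0721. Its exact 95% interval of 0.0083 to 0.286 covers counting error only and takes the estimated counts as given. The ratio of 15d-PGJ2-PC to control reads was 0.791 (0.431 to 1.43). Without the filter on low values, limma gave adjusted p = 0.000159 for 15d-PGJ2 and 0.241 for 15d-PGJ2-PC. With a pseudocount of 0.1, added after the data were seen, the log2 fold changes were -1.96 (SE 0.28, adjusted p = 0.000537) and -0.30 (adjusted p = 0.541).

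Regulators upstream of Ciita were abundant enough to test, and many fell. Of 21 genes for regulators of Ciita and of class II promoters, 11 fell, 4 rose and 6 did not pass with 15d-PGJ2 (median log2 fold change -0.34), and 9 fell, 4 rose and 8 did not pass with 15d-PGJ2-PC (median -0.21). The 21 include Nlrc5, a relative of Ciita that acts on MHC class I genes, and it counts among the falls with both compounds. Among all tested genes, 25.0% fell and 22.2% rose with 15d-PGJ2, and 14.1% fell and 13.8% rose with 15d-PGJ2-PC. Irf1, an interferon-induced factor that acts on the Ciita promoter, had 28.5, 24.59 and 26.45 FPKM with 15d-PGJ2, 42.3, 44.52 and 42.16 with 15d-PGJ2-PC, and 65.97, 67.18 and 74.86 in controls. The 3 groups did not overlap. Its log2 fold changes against control were -1.35 (SE 0.06, limma adjusted p = 4.23e-08) with 15d-PGJ2 and -0.68 (adjusted p = 2.43e-05) with 15d-PGJ2-PC. The receptor chain gene Ifngr1 averaged 51.2 ± 4.14 FPKM with 15d-PGJ2, 77.0 ± 1.57 with 15d-PGJ2-PC and 99.3 ± 4.27 in controls (SD, n = 3 each). Ifngr2, the other receptor chain, and Spi1, which encodes the macrophage factor PU.1, fell with 15d-PGJ2 by 0.53 and 0.46 on the log2 scale and with 15d-PGJ2-PC by 0.33 and 0.28. The kinase genes Jak1 and Jak2 did not pass with either compound (limma adjusted p = 0.724 and 0.831 with 15d-PGJ2).

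Of the factors that hold CIITA at the promoters, not all moved alike (these genes were named after their values were seen). Rfx5, the RFX subunit that gives the complex its DNA contact, had 2.99, 2.46 and 2.70 FPKM with 15d-PGJ2, 4.22, 3.98 and 3.52 with 15d-PGJ2-PC, and 4.56, 4.73 and 4.74 in controls. It fell with 15d-PGJ2 (log2 fold change -0.61, limma adjusted p = 0.000391) and did not pass with 15d-PGJ2-PC (-0.21, adjusted p = 0.136). The RFX partner gene Rfxank rose, averaging 14.9 ± 0.43 FPKM with 15d-PGJ2, 12.9 ± 0.99 with 15d-PGJ2-PC and 8.95 ± 1.36 in controls. Nfya, the NF-Y subunit that contacts the Y box, rose as well, with log2 fold changes of 0.52 and 0.46. Rfxap also passed with both compounds (0.28 and 0.38), although with 15d-PGJ2 its call was lost without any of 15d-PGJ2 replicates 1, 2 and 3 (adjusted p = 0.109, 0.0841 and 0.0606) or control replicates 1 and 2 (0.128 and 0.111), and without the filter (0.0723). With 15d-PGJ2-PC it was lost without 15d-PGJ2-PC replicate 1 (0.0588) or 3 (0.0645) or control replicate 1 (0.0611) or 2 (0.0558). Nfyb, Nfyc and Creb1 did not pass with either compound.

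**Figure D2:**
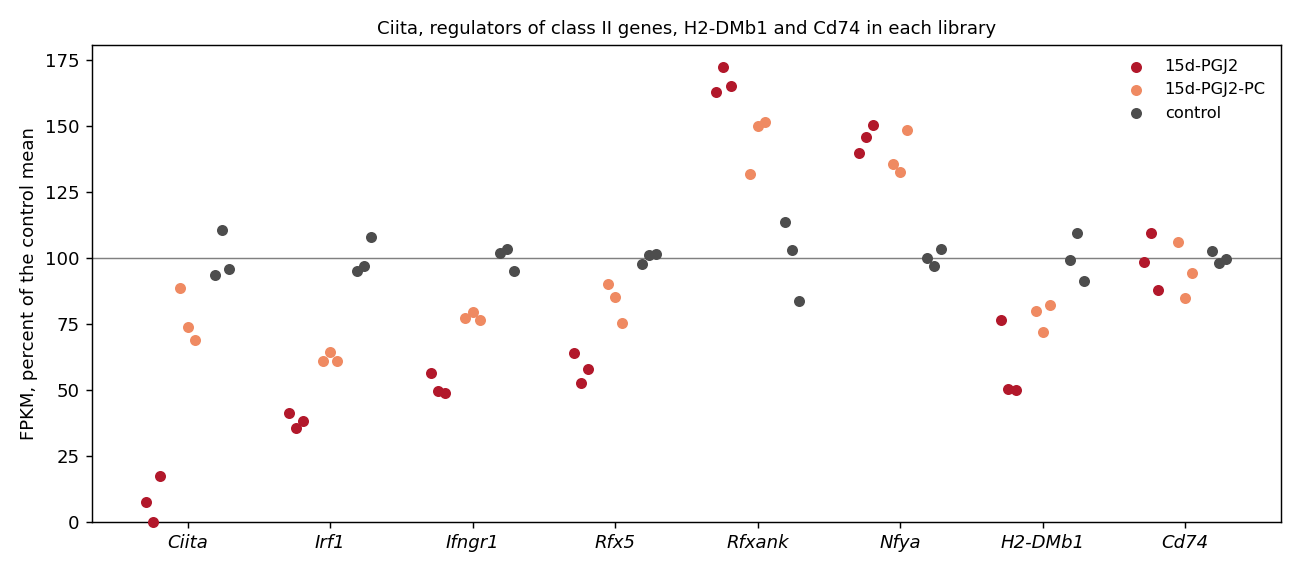
FPKM of each library as a percent of the gene's control mean (line at 100) for Ciita, 5 regulators and the class II genes H2-DMb1 and Cd74. With 15d-PGJ2, Ciita, Irf1, Ifngr1 and Rfx5 lie below all 15d-PGJ2-PC and control libraries, Rfxank and Nfya lie above all controls, and Cd74 stays around 100.

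The further genes of the class II pathway mostly fell with 15d-PGJ2. Of 14 listed by name, 13 were in the table and 9 were tested, and of these 8 fell and March8 rose with 15d-PGJ2 (median log2 fold change -0.37), while 4 fell and 5 did not pass with 15d-PGJ2-PC (median -0.15). Of all tested genes, 25.0% fell and 22.2% rose with 15d-PGJ2, and 14.1% fell with 15d-PGJ2-PC. One of the falls with 15d-PGJ2, that of Ifi30, was near the threshold (limma adjusted p = 0.0494). It was lost under many alternatives, such as quantile normalization (0.163) and a fit without the filter (0.0964). Lgmn and Ctss encode the proteases legumain and cathepsin S, which trim antigen and the invariant chain. Lgmn averaged 526 ± 11.6 FPKM with 15d-PGJ2, 667.5 ± 20.8 with 15d-PGJ2-PC and 791 ± 1.32 in controls. Ctss averaged 1045 ± 19.0, 1195 ± 25.3 and 1350 ± 17.9 FPKM in that order. Sppl2a, the membrane protease that clears the remnant of CD74, fell by 0.45 and 0.19 on the log2 scale with 15d-PGJ2 and 15d-PGJ2-PC. March1, the ubiquitin ligase that removes class II and CD86 from the surface, averaged 33.3 ± 2.51 FPKM with 15d-PGJ2, 45.0 ± 0.69 with 15d-PGJ2-PC and 50.1 ± 1.94 in controls, and fell with 15d-PGJ2 (limma adjusted p = 9.90e-06). With 15d-PGJ2-PC it did not pass (0.0706), but did without 15d-PGJ2 replicate 1 (0.0304) and with the 6 libraries alone (0.0402). Cd83, which opposes March1, had 10.22, 10.64 and 11.76 FPKM with 15d-PGJ2, 14.24, 12.74 and 11.51 with 15d-PGJ2-PC, and 21.44, 20.41 and 20.23 in controls. Both treated groups lay far below control. The H2-DO genes H2-Oa and H2-Ob, which restrain H2-DM, stayed at or below 0.52 FPKM in every library.

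The costimulatory ligands CD86 and CD80 both engage CD28 on T cells, and CD40 receives the T cell's reply through CD40 ligand. Cd86 (Entrez 12524, chromosome 16, 36568956 to 36666158) had 13.76, 11.88 and 12.74 FPKM with 15d-PGJ2, 14.58, 13.20 and 14.17 with 15d-PGJ2-PC, and 16.48, 16.81 and 15.03 in controls. All 6 treated libraries were below all controls, by a small margin for 15d-PGJ2-PC. It fell with 15d-PGJ2 (log2 fold change -0.31, SE 0.07, limma adjusted p = 0.0048), and the change of -0.19 with 15d-PGJ2-PC did not pass (adjusted p = 0.0763).

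Cd40 (Entrez 21939, chromosome 2, 165055614 to 165071654) had 9.52, 12 and 12.48 FPKM with 15d-PGJ2, 13.40, 11.49 and 12.14 with 15d-PGJ2-PC, and 14.39, 15.57 and 17.45 in controls. Again no treated library reached the lowest control. The log2 fold changes were -0.45 with 15d-PGJ2 (SE 0.11, limma adjusted p = 0.00501) and -0.33 with 15d-PGJ2-PC (SE 0.11, adjusted p = 0.0392). The 15d-PGJ2-PC call was lost without 15d-PGJ2-PC replicate 2 (0.121) or 3 (0.0955) or control replicate 2 (0.0820) or 3 (0.132). It was also lost without the trend (0.0591) and without the filter (0.0764), within a range of 0.0153 to 0.132.

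Cd80 (Entrez 12519, chromosome 16, 38457430 to 38495958) had 1.71, 1.94 and 2.35 FPKM with 15d-PGJ2, 3.83, 1.28 and 2.14 with 15d-PGJ2-PC, and 3.06, 4.14 and 3.52 in controls. The 15d-PGJ2 libraries lay below all controls, whereas the 15d-PGJ2-PC libraries ran from the lowest value of the 9 to one within the control range. Its log2 fold change with 15d-PGJ2 was -0.61 (SE 0.23), just short of the threshold at limma adjusted p = 0.0519, and it passed without 15d-PGJ2-PC replicate 1 (0.0103) or 2 (0.0168), with the 6 libraries alone (0.0065) and with a pseudocount of 5 (0.0437). With 15d-PGJ2-PC it was -0.48 (adjusted p = 0.155), and it passed without 15d-PGJ2-PC replicate 1 (0.0110). Over the alternatives that tested Cd80, which a filter of 5 FPKM left out, the adjusted p ran from 0.0065 to 0.147 for 15d-PGJ2. For 15d-PGJ2-PC it ran from 0.0110 to 0.454.

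Other T cell ligands and the CD40 pathway moved both ways. Of 11 tested ligands outside the 10 genes, 5 fell, 3 rose and 3 did not pass with 15d-PGJ2 (median log2 fold change -0.10), and 4 fell, 2 rose and 5 did not pass with 15d-PGJ2-PC (median -0.05). The shares that rose, 27.3% and 18.2%, are near those of all tested genes (22.2% and 13.8%), and the shares that fell, 45.5% and 36.4%, stand beside 25.0% and 14.1%. Tnfrsf14, which encodes HVEM, averaged 17.1 ± 1.71 FPKM with 15d-PGJ2, 29.4 ± 1.39 with 15d-PGJ2-PC and 49.9 ± 4.19 in controls. Lgals9 (galectin 9) averaged 76.3 ± 3.04, 109 ± 4.69 and 161 ± 8.63 FPKM in that order. The coinhibitory ligand gene Cd274 (PD-L1) had 77.83, 77.74 and 80.53 FPKM with 15d-PGJ2, 101.74, 104.68 and 105.45 with 15d-PGJ2-PC, and 109.97, 112.32 and 119.60 in controls. Its groups did not overlap, but the call with 15d-PGJ2-PC (log2 fold change -0.13, limma adjusted p = 0.0328) was lost with quantile normalization (0.107), without the trend (0.0952), with the 6 libraries alone (0.0540) and without any of 15d-PGJ2-PC replicates 1, 2 and 3 (0.107, 0.0689 and 0.0569) or control replicates 2 and 3 (0.0611 and 0.0981).

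In the opposite direction, Icosl, the ligand of the T cell receptor ICOS, rose to 27.9 ± 0.69 FPKM with 15d-PGJ2 and 22.1 ± 1.45 with 15d-PGJ2-PC, against 15.0 ± 1.21 in controls. Nectin2, a ligand of the TIGIT and CD226 receptors, fell by 0.97 on the log2 scale with 15d-PGJ2 and by 0.57 with 15d-PGJ2-PC. Pvr, another ligand gene of the same list, went the other way. It rose by 0.81 with 15d-PGJ2 and by 0.56 with 15d-PGJ2-PC (limma adjusted p = 5.42e-05 and 0.00157). Of 11 genes of CD40 signalling, 5 rose, 2 fell and 4 did not pass with 15d-PGJ2, and 4 rose, 1 fell and 6 did not pass with 15d-PGJ2-PC. The shares that rose were 45.5% and 36.4%, beside 22.2% and 13.8% of all tested genes, and the shares that fell, 18.2% and 9.09%, were below the 25.0% and 14.1% of all tested genes. Adaptor genes that bind the CD40 tail were split: Traf3, Traf2 and Traf6 rose with 15d-PGJ2 by 0.69, 0.44 and 0.37 on the log2 scale, and Traf5 fell by 0.77. With 15d-PGJ2-PC Traf3, Traf2 and Traf6 rose by 0.51, 0.34 and 0.33, and Traf5 fell by 0.41, a call lost without control replicate 2 (limma adjusted p = 0.0559). Birc3, a ubiquitin ligase of the pathway, fell by 0.25 with 15d-PGJ2.

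**Figure D3:**
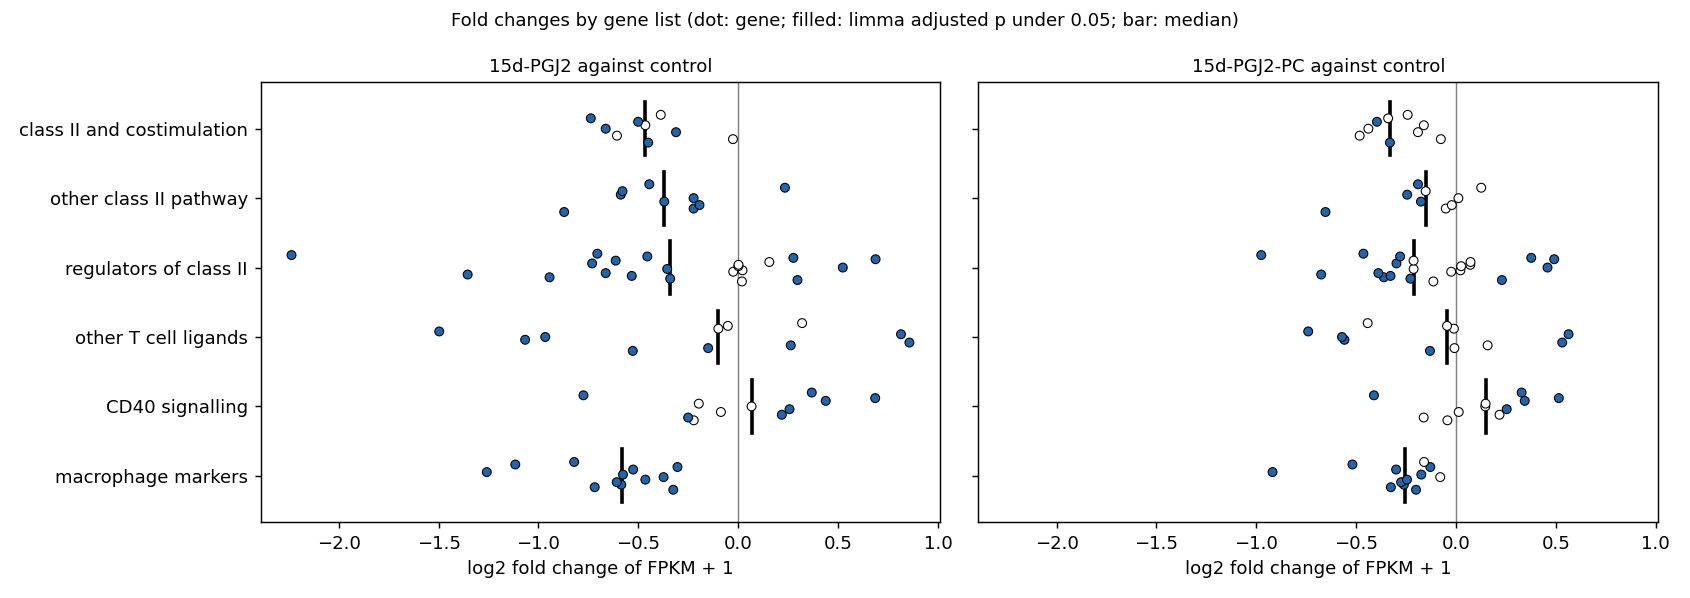
Log2 fold change of FPKM + 1 for each tested gene (dots, filled where called by limma) in 6 gene lists, for 15d-PGJ2 and 15d-PGJ2-PC against control, with the list median as a bar. The medians of the class II and costimulation genes are -0.47 and -0.33, and those of the macrophage markers -0.58 and -0.25.

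With 15d-PGJ2-PC, H2-DMa and Cd40 fell and none of the 10 genes rose. The 2 falls among 9 tested genes (22.2%) stand against 14.1% of all tested genes that fell and 27.8% that were called, so the share is near the background. The median log2 fold change was -0.33, against -0.004 over all tested genes. For 3 of the 9 genes, H2-DMb1, Cd86 and Cd40, all 15d-PGJ2-PC libraries lay below all controls. The same held for 21.3% of tested genes, and 41.8% had groups apart in either direction. The comparisons of each compound with control share the same 3 control libraries.

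Compared directly at the same dose and time, 15d-PGJ2-PC and 15d-PGJ2 could not be separated for any tested gene of the set. None of 9 was called by limma, where 20.6% of all tested genes were (12.3% higher and 8.30% lower with 15d-PGJ2-PC), and 1 of the 9, H2-DMb1, had an unadjusted p under 0.05. For H2-DMb1 the log2 fold change of 15d-PGJ2-PC over 15d-PGJ2 was 0.40 (95% interval 0.09 to 0.71, adjusted p = 0.0696), and it passed without 15d-PGJ2 replicate 1 (0.585 on the log2 scale, adjusted p = 0.0015). The intervals were -0.25 to 0.15 for Cd74, -0.04 to 0.28 for Cd86, -0.11 to 0.35 for Cd40 and -0.18 to 0.39 for H2-DMa. Those of the low genes were wider, reaching 0.87 for H2-Ab1, 0.71 for H2-Eb1, 0.67 for H2-Aa and 0.64 for Cd80. The 15d-PGJ2-PC mean lay between the means of 15d-PGJ2 and control for 8 of the 9 genes (88.9%) and for 62.5% of all tested genes.

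Ciita was the gene of the set with a clear difference between the compounds. Its 15d-PGJ2-PC libraries (0.28 to 0.36 FPKM) all lay above its 15d-PGJ2 libraries (0 to 0.07), a separation of groups that 37.3% of tested genes showed in either direction. Estimated reads were 22 with 15d-PGJ2-PC and 2 with 15d-PGJ2, a ratio of 11.0. The exact 95% counting interval of that ratio, with the estimated counts taken as given, was 2.70 to 96.2. Limma without the filter gave adjusted p = 0.00252, and 0.00456 with a pseudocount of 0.1 as well. Irf1 and Ifngr1 were likewise higher with 15d-PGJ2-PC than with 15d-PGJ2, by 0.68 and 0.58 on the log2 scale (limma adjusted p = 4.18e-05 and 5.17e-05), and Rfx5 by 0.40 (adjusted p = 0.0141). Of the 21 regulators 9 (42.9%), Nlrc5 among them, were higher with 15d-PGJ2-PC than with 15d-PGJ2 and none was lower. Among all tested genes 12.3% were higher and 8.30% lower.

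**Figure D4:**
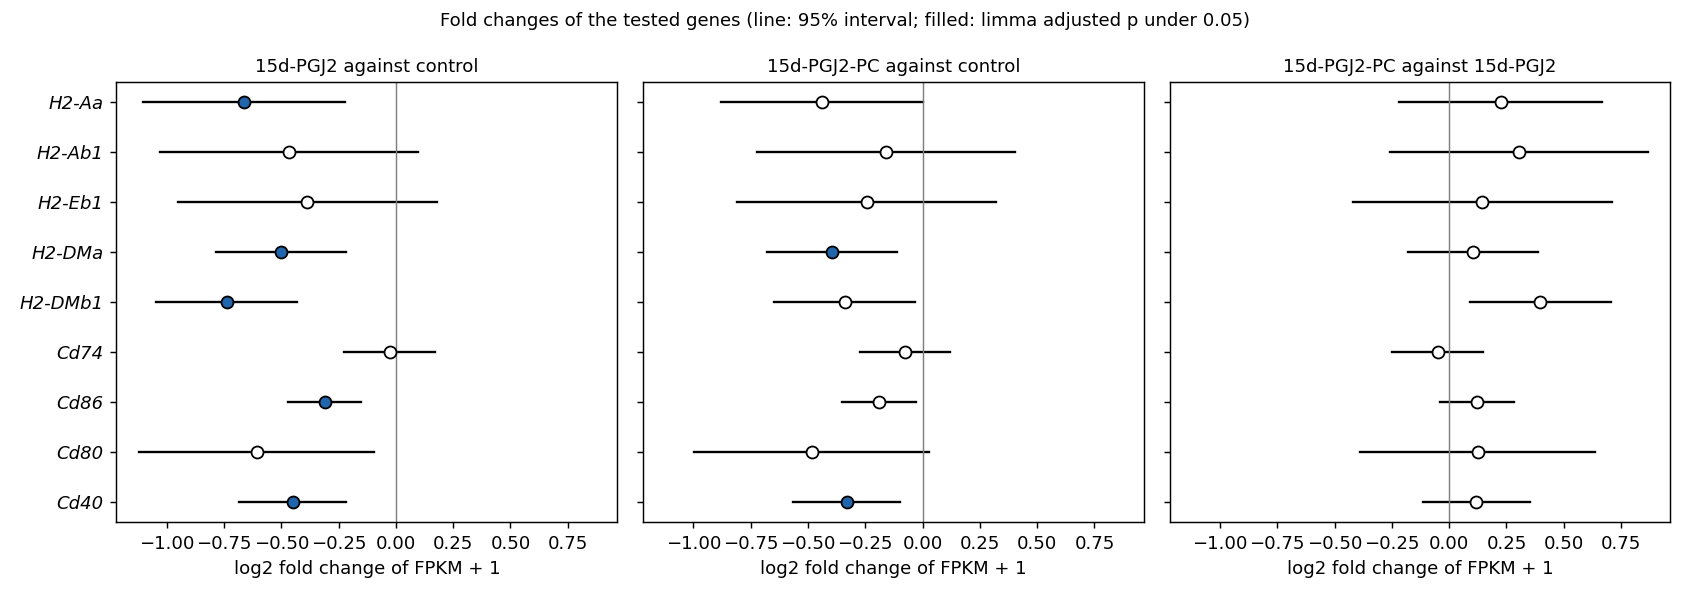
Log2 fold change of FPKM + 1 with its 95% interval for the 9 tested genes in each comparison (filled: limma adjusted p under 0.05). Against control, 5 genes are filled for 15d-PGJ2 and 2 for 15d-PGJ2-PC, and none is filled for 15d-PGJ2-PC against 15d-PGJ2.

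The libraries carried macrophage markers, and these moved with the groups. All 12 markers (among them Adgre1, Csf1r, Cd68 and Lyz2) fell with 15d-PGJ2 (median log2 fold change -0.58) and 10 of 12 with 15d-PGJ2-PC (median -0.25), beside 25.0% and 14.1% of all tested genes. Their summed level was 7180 to 7697 FPKM with 15d-PGJ2, 8650 to 8898 with 15d-PGJ2-PC and 9856 to 10333 in controls. In bulk RNA, fewer cells of a type and less RNA per cell cannot be told apart. Class II genes are also known from dendritic cells and B cells. The dendritic genes Flt3, Zbtb46 and Ccr7 were at 0 to 0.54 FPKM in every library. The summed 9 dendritic markers were 24.6 to 25.7 FPKM with 15d-PGJ2, 28.2 to 30.9 with 15d-PGJ2-PC and 36.3 to 37.4 in controls, mostly Batf3. Batf3 averaged 20.5 FPKM with 15d-PGJ2, 24.6 with 15d-PGJ2-PC and 31.0 in controls, and fell with both compounds. Of the other tested dendritic markers, Fscn1 (2.60 FPKM in controls) fell with 15d-PGJ2 only. Itgax (1.89) and Xcr1 (1.06) did not pass with either compound. The defining B cell genes Ms4a1 and Pax5 were at 0 to 0.15 FPKM. Cd79b and Cd22, the tested genes of the 7 B cell markers, both fell with 15d-PGJ2, and the sum was 18.9 to 21.8 FPKM with 15d-PGJ2, 31.1 to 36.6 with 15d-PGJ2-PC and 48.4 to 55.6 in controls. The 4 listed T cell markers summed to 5.27 to 8.39 FPKM over all libraries.

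Controls also held transcripts of skin, stroma and red cells that were at or near 0 in treated libraries for the epidermal and erythroid lists. Epidermis markers (7 listed, among them Lor, Krt1 and Krt5) summed to 0.68 to 1.03 FPKM with 15d-PGJ2, 0.51 to 1.37 with 15d-PGJ2-PC and 22.7 to 27.2 in controls, and 6 of the 7 were at 0 in every treated library. Stromal markers (6 listed) summed to 7 to 8.84, 6.73 to 7.43 and 32.2 to 34.9 FPKM in the same order. Erythroid markers (4 listed) summed to 0.33 to 0.76, 0 to 0.91 and 19.6 to 31.8. The markers of Langerhans cells, the class II-bearing cells of the epidermis, were near 0: Cd207 and Epcam together were at 0 with 15d-PGJ2, at 0 to 0.12 FPKM with 15d-PGJ2-PC and at 0.09 to 0.29 in controls. The part of these transcripts in the differences from control was not tested. The fold changes of 15d-PGJ2-PC over 15d-PGJ2 contain no control value, although the controls enter the spread estimate and the filter behind their test.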

How the data were processed

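RNA was sequenced from 9 macrophage libraries. Per the labels' protocols, Trizol was used for extraction and a TruSeq RNA kit for the libraries. The authors deposited FPKM values per gene, with 2 decimals, for 18049 genes, per the file headers. The submitters' processing notes name BWA and mm10; the version of BWA and the fragment counter are not stated in the material at hand. Because FPKM values are not counts, limma was used in place of a count model. Values went to log2(FPKM + 1), and limma 3.58.1 (R 4.3.3) with an intensity trend was fitted over all 9 libraries without covariates, 2-sided, for the 11309 genes that reached 1 FPKM in 3 or more libraries. The 3 contrasts, filter and threshold were the same throughout. The fit was also run on simulated log2 values with normal noise and planted shifts. That run does not reproduce counting error at low FPKM, and its outcome is not given here.

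Depth was read off the steps of low values in genes of 600 to 2500 bases with 1 transcript. Of these values, 74.1% to 76.8% came within 0.15 reads of a whole number, where 30.0% would by chance. Reads per gene follow from FPKM, median GENCODE transcript length and depth. All sample columns were used, and 23 symbols that a spreadsheet had turned into dates were restored from Entrez numbers. Coordinates are those of RefSeq on GRCm38, the assembly that mm10 names.

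The 10 genes and all lists were chosen with earlier results of these data known. From each of the 4 pathway lists, the up to 5 genes with the smallest p in either compound against control are named; others were named after their values were seen. A gene under that rule is not reported here. Alternatives covered the pseudocount, filter, scaling, trend, samples in the fit, the replicate number as a block, and each library left out.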

Additional observations from a re-analysis of the deposited data

How the results depend on the processing

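Over 504 refitted values of the 9 tested genes (1 per gene, comparison and setting), 475 kept their side of the threshold, 20 lost and 9 gained a call. No called change reversed direction. Some changes that were not called did change sign, such as that of Cd74 with 15d-PGJ2 (log2 fold change -0.10 to 0.05). With 15d-PGJ2 the 5 falls ranged from 4 to 6 without single libraries and also from 4 to 6 under the other settings. The 2 falls with 15d-PGJ2-PC became 0 without the filter on low values (where Ciita enters the test), 0 without the trend and 1 with the replicate number as a block, and ranged from 0 to 3 without single libraries. Between the compounds, the count of 0 genes higher with 15d-PGJ2-PC became 1 without the filter, and ranged from 0 to 1 without single libraries. Counts over all genes stayed within 1.5 times. Whether the replicate numbers pair the libraries could not be settled. Same-numbered libraries of different groups correlated at only -0.04 to 0.05 in their deviations from group means. Each 15d-PGJ2-PC library correlated best with the control of its own number. For 15d-PGJ2 against either other group, this held for replicate 1 but not for replicates 2 and 3. With the block, 5 genes fell with 15d-PGJ2, as without it. Among the values for other named genes, 2071 of 2160 kept their side of the threshold, and no called change reversed direction. Median shifts of all genes under quantile or median-of-ratios scaling stayed below 0.1 on the log2 scale. Depth limits the low genes: H2-Aa, H2-Eb1, Cd80 and Ciita rest on at most 39 reads in any library, a counting error at the lowest library of 37.9% for H2-Eb1, 30.9% for H2-Aa and 28.9% for Cd80, and Ciita reaches 0 reads.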

Other observations

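H2-Ab1 and H2-Eb1 were highest in replicate 1 of each group. 15d-PGJ2 replicate 1 had the highest value of its group for H2-Ab1 (5.06 FPKM), H2-Eb1 (2.07), H2-DMa (6.24), H2-DMb1 (15.22) and Cd86 (13.76), and the lowest for H2-Aa (1.69), Cd80 (1.71) and Cd40 (9.52). Among 15d-PGJ2-PC libraries, replicate 1 was highest for each of the 10 genes but H2-DMa and H2-DMb1. Control replicate 1 was highest for H2-Ab1 (6.52), H2-Eb1 (2.47), H2-DMa (9.09) and Cd74 (27.68). With 3 libraries a group, no relation between genes was tested.

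Flt3, a receptor of dendritic precursors, was at 0.29, 0.40 and 0.20 FPKM with 15d-PGJ2, 0.54, 0.44 and 0.34 with 15d-PGJ2-PC, and 0, 0.15 and 0 in controls. Both treated groups lay above control, at levels below the filter. Nlrc5, the relative of Ciita that acts on MHC class I genes, averaged 8.05 ± 0.68 FPKM with 15d-PGJ2, 11.2 ± 1.47 with 15d-PGJ2-PC and 14.0 ± 1.17 in controls. Its fall with 15d-PGJ2 passed (log2 fold change -0.73, limma adjusted p = 0.000135), and that with 15d-PGJ2-PC (-0.30, adjusted p = 0.0478) was lost under several settings, such as a fit without the trend (0.0631) and fits without 15d-PGJ2-PC replicate 1 (0.161) or control replicate 3 (0.146).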
